A study of Mus musculus with 60 samples.

Results

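The miR-302–miR-367 cluster and its host gene Larp7 were described in nascent RNA of mouse embryonic stem cells after knockdown of the nuclear receptor Esrrb, one of the factors that hold these cells in the naive state. The members are 5 miRNA precursor genes (Mir302b, Mir302c, Mir302a, Mir302d and Mir367, in the order of transcription) and Larp7, which makes 6 of the 24256 gene symbols with a row in the deposited tables. They were taken by symbol, each with its single RefSeq transcript, and without a minimum level. They had been picked because their values in these same 4 libraries differed between the groups, so their own differences are given as a description, with no test.

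The series asked what happens to genes of a chromatin domain when enhancers bound by Esrrb lose activity. E14 cells, a line of mouse embryonic stem cells, were transfected with an siRNA against Esrrb (siEsrrb, 2 libraries) or with a control siRNA (siCtrl, 2 libraries) and harvested 72 h later. RNA was taken from the chromatin pellet, which is rich in transcripts still being made, and stranded libraries were prepared after removal of ribosomal RNA. Separate cultures are not stated for the libraries of a group, and the statement on biological replicates in the series text excludes this assay, so spread and p-values refer to these libraries only.

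The 5 precursors are cut as hairpins from one primary transcript, and the mature miRNAs loaded on Argonaute proteins pair with messenger RNAs through their seed, the bases near the 5′ end. The miR-302 miRNAs are known from human embryonic stem cells and from the primed epiblast stage in mouse, while the miR-290 to miR-295 cluster, which carries the same seed, is the main such cluster of naive mouse embryonic stem cells. Larp7 is a La-related RNA-binding protein that holds the 3′ end of the 7SK RNA, the scaffold of the particle that keeps the elongation kinase P-TEFb inactive. In the annotation GRCm38.p6 all 5 precursors lie inside Larp7 on the opposite strand, and all 5 lie in the long noncoding RNA gene Gm51018, 1815 bases long, on its strand.

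The mature sequences are shown because the seed decides which other miRNA genes can be set beside the cluster. They are RefSeq entries on chromosome 3 of GRCm38.p6, written 5′ to 3′ with the seed, bases 2 to 8, in capitals. The table held 9 mature arms of the cluster. The 3p arms of 4 genes and a pair of 5p arms read as follows.
miR-302b-3p: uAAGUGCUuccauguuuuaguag
miR-302d-3p: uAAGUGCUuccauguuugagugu
miR-302c-3p: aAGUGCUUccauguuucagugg
miR-367-3p: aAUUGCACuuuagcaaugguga
miR-302b-5p: aCUUUAACaugggaaugcuuucu
miR-302a-5p: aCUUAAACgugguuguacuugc
The arms miR-302b-3p and miR-302d-3p share the seed AAGUGCU. In miR-302c-3p the same 7 letters start at base 1, so its bases 2 to 8 read AGUGCUU. The seed of miR-367-3p, AUUGCAC, is a different one, so the cluster carries more than one seed. Outside the cluster, AAGUGCU is the seed of 3 miRNAs of the miR-290 to miR-295 cluster, and AUUGCAC is that of miR-25, miR-32, miR-92a, miR-92b and miR-363, of which one of each is shown.
miR-294-3p: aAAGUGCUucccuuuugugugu
miR-92a-3p: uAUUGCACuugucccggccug

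The depth behind the deposited values was 22363943 and 61857158 reads in siEsrrb replicates 1 and 2, against 24764879 and 68002338 reads in siCtrl replicates 1 and 2. Esrrb itself had 1.38 and 2.20 RPKM (reads scaled by transcript length and library depth) in siEsrrb replicates 1 and 2, against 3.23 and 3.36 RPKM in siCtrl replicates 1 and 2, which after scaling is 44.2% and 67.0% of control. This nascent signal does not measure the mRNA or protein that remained. All 10 embryonic stem cell markers were at a mean of 0.5 RPKM or more. Their summed level was 109 and 111 RPKM in siEsrrb libraries and 119 and 129 RPKM in siCtrl libraries. The sum hides opposed differences. After scaling the libraries to each other, 5 lay lower in both siEsrrb libraries (Zfp42, Esrrb, Dppa5a, Nanog and Tdgf1), 1 higher (Pou5f1), and 4 overlapped. As deposited, Tdgf1 overlapped, at 17.09 and 20.15 RPKM in siEsrrb and 18.64 and 21.93 RPKM in siCtrl. Among all genes with a mean of at least 0.5 RPKM, 22% lay lower and 21.8% higher. Of 8 fibroblast markers 0 reached 0.5 RPKM and 1, Lum, was at 0 in every library, with sums from 0.267 to 0.703 RPKM in siEsrrb and from 0.172 to 0.510 RPKM in siCtrl. The markers of primitive endoderm, mesoderm and trophectoderm summed to at most 0.330 RPKM in any library. The 3 neuroectoderm markers (Sox1, Pax6 and Nes) summed to 7.11 and 7.83 RPKM in siEsrrb and 4.67 and 4.64 RPKM in siCtrl. Most of this was Nes, at 5.45 and 5.60 RPKM in siEsrrb and 2.87 and 2.88 RPKM in siCtrl. Sox1 also lay higher in both siEsrrb libraries, at 0.709 and 0.965 RPKM, against 0.570 and 0.510 RPKM in siCtrl. Pax6 overlapped, at 0.953 and 1.27 RPKM in siEsrrb and 1.22 and 1.25 RPKM in siCtrl. The part of these markers in the results below was not tested. In bulk RNA, a different number of cells making a transcript and a different amount of it per cell cannot be told apart.

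All 5 precursors lay higher in both siEsrrb libraries than in both siCtrl libraries, and few reads stand behind each. Summed over the 5 precursors, which cover 352 bases, there were 29 and 114 reads in siEsrrb replicates 1 and 2, against 6 and 16 reads in siCtrl replicates 1 and 2. Per length and depth this is 3.68 and 5.24 RPKM in siEsrrb, against 0.688 and 0.668 RPKM in siCtrl. The groups did not overlap, and the siCtrl libraries lay closer together than the siEsrrb libraries. After scaling the libraries to each other, the sum averaged 4.48 ± 0.676 RPKM in siEsrrb and 0.670 ± 0.0737 RPKM in siCtrl (SD, n = 2 each), a ratio of 6.69. On the log2(RPKM + 0.5) scale, which understates changes of low values, the difference was 2.09. By replicate number the fold was 5.55 (95% exact interval 2.26 to 16.3) in replicate 1 and 8.03 (4.74 to 14.5) in replicate 2. These intervals cover counting error only, and not the spread between libraries. Reads copied by PCR are not independent molecules and would make the intervals too narrow.

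**Figure D1:**
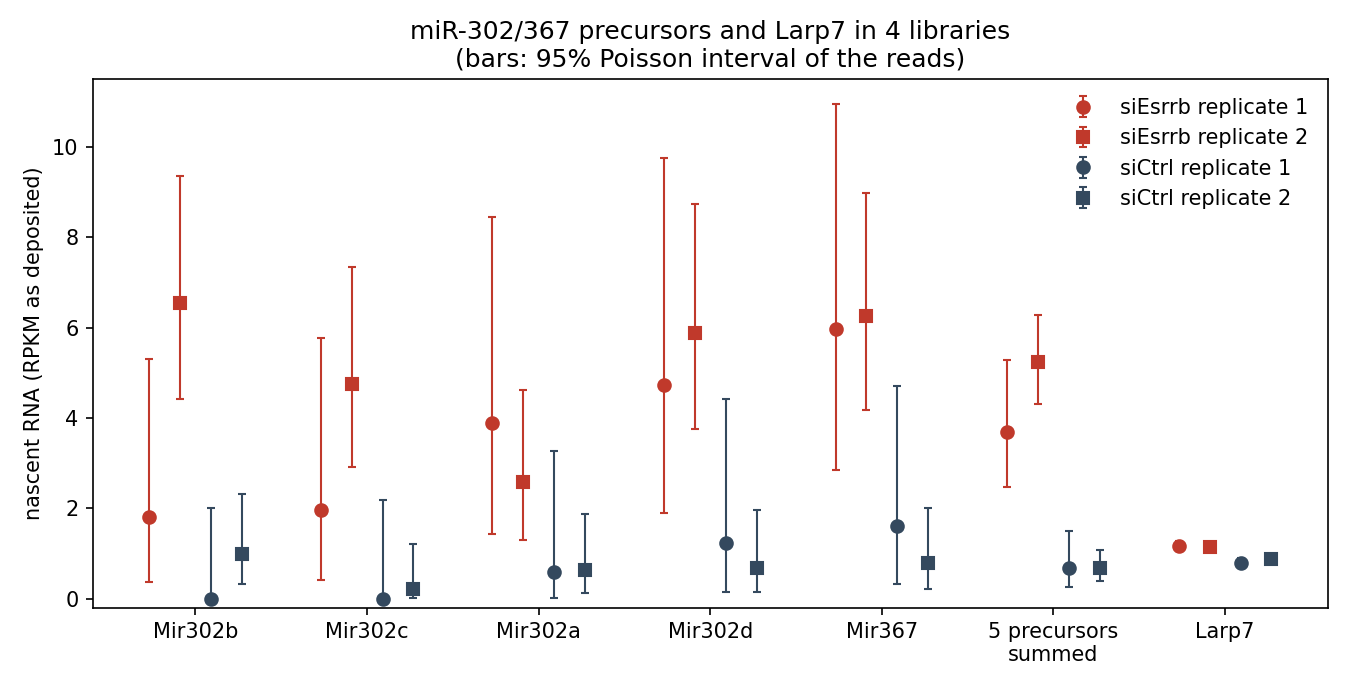
Deposited RPKM (y axis) of the 5 precursors, their sum and Larp7 (x axis) in each library, siEsrrb in red and siCtrl in dark blue, with circles for replicate 1, squares for replicate 2 and bars for the 95% exact Poisson interval of the reads. For every gene both siEsrrb points lie above both siCtrl points, and the intervals of single precursors are wide because they rest on 0 to 30 reads.

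The first precursor, Mir302b, had 3 and 30 reads (1.81 and 6.55 RPKM) in siEsrrb replicates 1 and 2, against 0 and 5 reads (0 and 0.994 RPKM) in siCtrl replicates 1 and 2. Next along the transcript, Mir302c had 3 and 20 reads (1.97 and 4.75 RPKM) in siEsrrb, against 0 and 1 read (0 and 0.216 RPKM) in siCtrl. For these precursors siCtrl replicate 1 held no read, and 3 reads there would have been 1.64 RPKM for Mir302b and 1.78 RPKM for Mir302c, so the low end of siCtrl is set by depth. In replicate 1 the fold thus has no upper limit, and its interval reached down to 0.474 for both, which is below 1. In replicate 2, where both groups held reads, the fold was 6.76 (2.60 to 22.3) for Mir302b and 22.5 (3.61 to 934) for Mir302c, the second resting on 1 control read.

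Mir302a had 6 and 11 reads (3.89 and 2.58 RPKM) in siEsrrb, against 1 and 3 reads (0.585 and 0.639 RPKM) in siCtrl. Mir302d had 7 and 24 reads (4.74 and 5.88 RPKM) in siEsrrb, against 2 and 3 reads (1.22 and 0.668 RPKM) in siCtrl. Mir367, the last of the cluster and the one with the other seed, had 10 and 29 reads (5.96 and 6.25 RPKM) in siEsrrb, against 3 and 4 reads (1.62 and 0.784 RPKM) in siCtrl. The replicate 1 intervals of all 3 reach below 1 (Mir302a 6.89, 0.835 to 317; Mir302d 4.02, 0.765 to 39.6; Mir367 3.83, 0.985 to 21.6), whereas those of replicate 2 lie above 1 (Mir302a 4.13, 1.09 to 23.1; Mir302d 9.02, 2.74 to 46.8; Mir367 8.17, 2.87 to 32.0).

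The order of the precursors rests on few reads. By scaled mean level in siEsrrb the order was Mir367 (6.20 ± 0.395 RPKM), Mir302d (5.36 ± 0.293), Mir302b (4.09 ± 3.00), Mir302a (3.34 ± 1.26) and Mir302c (3.33 ± 1.67). In siCtrl the means were 1.21 ± 0.686 RPKM for Mir367, 0.951 ± 0.471 for Mir302d, 0.603 ± 0.0162 for Mir302a, 0.459 ± 0.650 for Mir302b and 0.100 ± 0.141 for Mir302c (SD, n = 2). Neighbours in the siEsrrb order had overlapping Poisson intervals within each siEsrrb library, which does not show that their levels are alike. For Mir302b and Mir302a in siEsrrb replicate 2 the intervals barely met, from 4.42 RPKM up for Mir302b and up to 4.61 RPKM for Mir302a. The fitted log2 differences ran from 1.76 (SE 0.24) for Mir302a to 2.62 (SE 0.37) for Mir302c, with 2.03 (SE 0.30) for Mir367, 2.05 (SE 0.25) for Mir302d and 2.27 (SE 0.72) for Mir302b. The precursors share a primary transcript and are not replicates of each other.

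Larp7 was also higher in both siEsrrb libraries, with a smaller ratio. It had 430 and 1179 reads (1.16 and 1.15 RPKM) in siEsrrb replicates 1 and 2, against 329 and 983 reads (0.799 and 0.869 RPKM) in siCtrl replicates 1 and 2. The groups did not overlap, and over the 16636 bases behind its RPKM, introns included, its counting error is small. The scaled mean was 1.17 ± 0.121 RPKM in siEsrrb and 0.821 ± 0.0244 RPKM in siCtrl (SD, n = 2 each), a ratio of 1.43 and a fitted log2 difference of 0.34 (SE 0.08). By replicate number the fold was 1.50 (95% exact interval 1.30 to 1.74) and 1.35 (1.24 to 1.47).

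All 6 members lay higher in both siEsrrb libraries, as did 21.8% of the 9755 genes tested (mean of at least 0.5 RPKM). The 5 precursors, and not Larp7, were also apart by at least 1.5-fold, the lowest siEsrrb value against the highest siCtrl value with 0.5 RPKM added, as were 0.666% of the genes tested and 47 of the 618 miRNA genes tested (7.61%). Nothing is read from these counts, since the members were chosen on this contrast. Of the 6 members, Mir302b and Mir302c passed the minimum only through siEsrrb, with siCtrl means under 0.5 RPKM. Of the 618 miRNA genes tested, 380 had under 20 reads per library on average. Of the 47 miRNA genes higher and apart, 37 had so few reads, and of the 12 lower and apart, 11 had. The median log2 difference was 0.20 for the miRNA genes tested and -0.0011 for all genes tested. Across the whole table, limma passed 0% of genes at an adjusted p under 0.05 (0 of 9755, smallest adjusted p 0.247), with 1098 genes at an unadjusted p under 0.05, 578 higher and 520 lower. With voom on recovered reads 0 passed and 1187 had an unadjusted p under 0.05. A replicate block, a pairing that the labels do not give, left 0 past the limma threshold and 2689 with voom, the second chosen after seeing the data.

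Whether Larp7 followed the cluster was read most directly within each library, where depth and scaling cancel. The read density of the precursors over that of Larp7 was 3.19 (95% exact interval 2.11 to 4.65) and 4.57 (3.74 to 5.54) in siEsrrb replicates 1 and 2, against 0.862 (0.314 to 1.90) and 0.769 (0.438 to 1.26) in siCtrl replicates 1 and 2. In siCtrl the ratio lay below 1 in both libraries, with 1 inside both intervals. These intervals are wide, resting on 6 and 16 precursor reads, and do not show that the densities are equal. In siEsrrb they were read at a higher density than Larp7 in both libraries. These ratios use the reads on which the precursors were chosen, so they describe the libraries and are no test. The siEsrrb-over-siCtrl log2 ratio of these densities was 2.23.

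**Figure D2:**
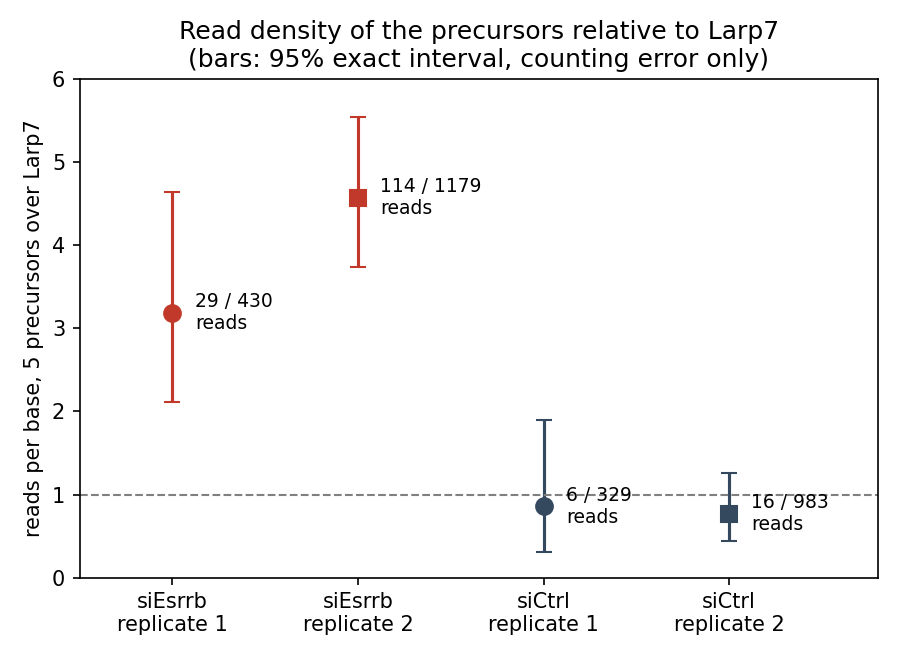
Reads per base over the 5 precursors divided by reads per base over Larp7 (y axis) in each of the 4 libraries (x axis), with the 95% exact interval for counting error and the read numbers beside each point. The siEsrrb points, 3.19 and 4.57, lie above the dashed line of equal density, and the siCtrl points, 0.862 and 0.769, lie just below it.

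The precursors lie within the length over which Larp7 was counted, and the sources used here do not say whether its count kept to its own strand. Nor do they say this for the precursors, whose reads, few in siCtrl, may include reads of Larp7. The precursor levels, their folds and the density ratios would then hold reads of Larp7 too. That share was not tested. The precursor reads equal 6.74% and 9.67% of the Larp7 reads in siEsrrb replicates 1 and 2, against 1.82% and 1.63% in siCtrl replicates 1 and 2. Taking them out of Larp7 left a log2 difference of 0.27. If the whole of Gm51018 were read at the density of the precursors, it would hold 149.5 and 587.8 reads in siEsrrb and 30.94 and 82.5 reads in siCtrl. Larp7 less these reads would stand at 0.754 and 0.575 RPKM in siEsrrb, against 0.724 and 0.796 RPKM in siCtrl, which overlap, and the log2 difference turns to -0.088. Gm51018 has no row in the tables, so this density was assumed and not measured, and how much of the difference in Larp7 comes from the opposite strand was not tested.

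Other miRNA genes inside protein-coding genes give a setting for the gap between the cluster and its host. On the opposite strand to a host, as here, 32 other miRNA genes in 32 hosts had at least 20 reads over the 4 libraries. The log2 difference of these miRNA genes minus that of the host had a median of 0.01 and quartiles of -0.21 and 0.35. It ranged from -1.22 to 1.45, with 3 of 32 at 1 or more and 1 at -1 or less. For the 5 precursors it ran from 1.42 to 2.28. The precursors had been chosen for being high in siEsrrb and the others had not, so these ranges are given side by side and nothing is read from their order. With at least 50 reads 0 of the 5 precursors are left. Among 242 miRNA genes on the strand of their host the median was 0.08 and the range -1.96 to 3.51, so gaps as large occurred there. Of the 242, 17 were at 1 or more and 10 at -1 or less. Chosen after their values were seen, Mir188, Mir362, Mir500, Mir501 and Mir532 in Clcn5 had gaps from 2.53 (Mir500) to 3.51 (Mir362). All 5 are among the 17 and share this host, so they are not separate cases. They had from 29 (Mir188) to 35 reads (Mir500) over the 4 libraries. Mir188, Mir362, Mir501 and Mir532 had no read in siCtrl, so the size of their gaps depends on the 0.5 RPKM added.

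**Figure D3:**
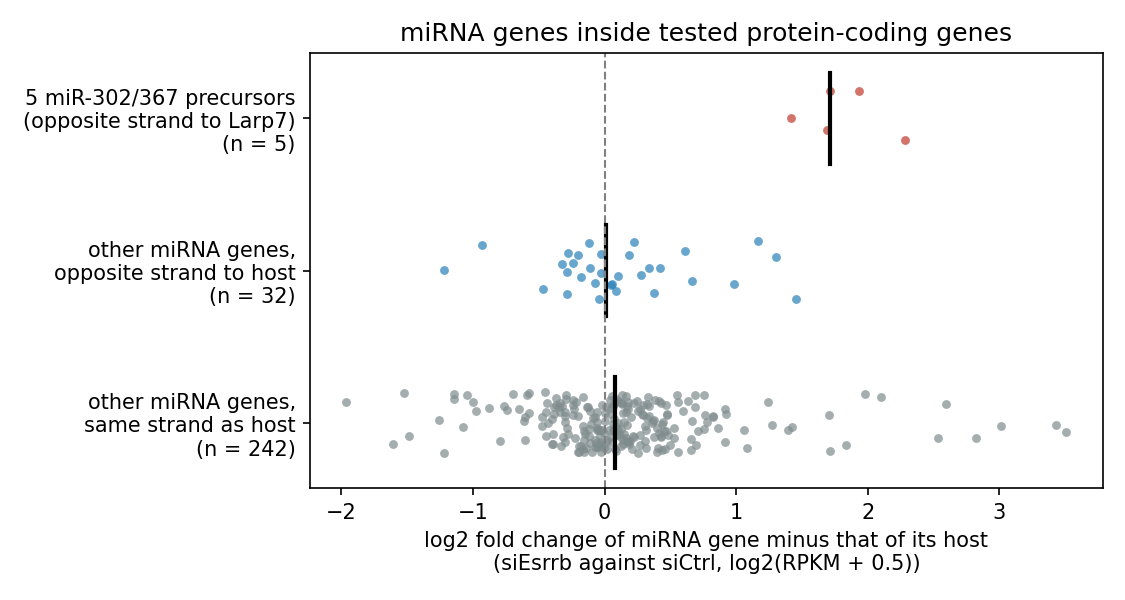
Log2 fold change of a miRNA gene minus that of the protein-coding gene that contains it (x axis, siEsrrb against siCtrl), for the 5 precursors, 32 other miRNA genes on the opposite strand and 242 on the same strand (rows), with a black line at each median. The 5 precursors lie between 1.42 and 2.28, and the medians of the other rows are 0.01 and 0.08.

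The promoters of the opposed transcription units are shown because the cluster and Larp7 differed in size of change. Each is RefSeq sequence of GRCm38.p6, from 250 bases before to 50 bases after the annotated start, with a motif match in capitals. That of Gm51018, at chr3:127544839-127545138 on the plus strand, starts the transcript around the precursors.
Gm51018 promoter: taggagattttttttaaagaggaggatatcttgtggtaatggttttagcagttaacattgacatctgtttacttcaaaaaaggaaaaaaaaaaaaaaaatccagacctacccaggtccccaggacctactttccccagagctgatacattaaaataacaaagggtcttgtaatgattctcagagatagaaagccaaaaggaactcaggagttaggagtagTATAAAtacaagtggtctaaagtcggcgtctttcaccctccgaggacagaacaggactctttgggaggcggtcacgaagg
That of Larp7 lies at chr3:127553300-127553599 on the minus strand.
Larp7 promoter: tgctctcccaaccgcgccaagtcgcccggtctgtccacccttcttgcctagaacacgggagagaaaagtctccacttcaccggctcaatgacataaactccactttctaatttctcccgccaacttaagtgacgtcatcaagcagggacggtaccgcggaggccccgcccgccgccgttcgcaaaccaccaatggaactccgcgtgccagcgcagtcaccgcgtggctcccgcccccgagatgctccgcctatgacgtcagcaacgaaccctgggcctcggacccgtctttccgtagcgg
Letters searched on both strands were AAGGTCA, the core element of estrogen-related receptors such as Esrrb, found in 4.72% of the 32851 promoters of the table. The octamer of Oct4, ATGCAAAT, was found in 1.74% of them. The core promoter box with the letters TATAAA was found in 13.6%. Gm51018 holds this box at bases -30 to -25 from the start and no match to the other letters, and Larp7 holds none of the 3. The Gm51018 window has 40.3% G and C and the Larp7 window 61.7%. A match or its lack describes these letters in this window only.

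The other 3 miRNA genes with the seed of miR-302b-3p had log2 differences from -0.29 to 0.34. Mir291a had 20.2 and 31.2 RPKM in siEsrrb replicates 1 and 2, against 18.2 and 30.7 RPKM in siCtrl replicates 1 and 2 (log2 difference 0.13, SE 0.27). Mir294 had 16.0 and 24.8 RPKM in siEsrrb, against 22.1 and 28.7 RPKM in siCtrl (-0.29, SE 0.20). Mir295 had 23.3 and 21.1 RPKM in siEsrrb, against 17.6 and 18.3 RPKM in siCtrl (0.34, SE 0.17). In Mir295 the siEsrrb libraries lay above the siCtrl libraries, as in 21.8% of all genes tested, and in Mir291a and Mir294 the groups overlapped. All 3 stood above every precursor of the miR-302–miR-367 cluster in every library, and limma passed 0 of the 3 (smallest adjusted p 0.540).

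Of 6 miRNA genes with the seed of miR-367-3p outside the cluster, 4 were tested, and in 3 both siEsrrb libraries lay above both siCtrl libraries, as in 21.8% of all genes tested. Mir92-1, of the miR-17 to miR-92 cluster, had 11.7 and 9.09 RPKM (21 and 45 reads) in siEsrrb, against 4.04 and 4.96 RPKM (8 and 27 reads) in siCtrl (log2 difference 1.16, SE 0.21). Mir32 had 3.83 and 3.93 RPKM (6 and 17 reads) in siEsrrb, against 1.73 and 1.26 RPKM (3 and 6 reads) in siCtrl (1.18, SE 0.18). Mir363 had 5 and 20 reads in siEsrrb, against 4 and 12 reads in siCtrl (0.61, SE 0.12). Mir25 overlapped between the groups (0.23, SE 0.16), and Mir92-2 and Mir92b lay under the minimum. The median of the 4 was 0.89, beside 0.20 for the miRNA genes tested, and over all 6 without the minimum it was 0.48. Limma passed 0 of them (smallest adjusted p 0.247).

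Of the 3 nearest protein-coding genes with a row on either side of Larp7, 2 were tested. Ank2, which encodes the membrane adaptor ankyrin-B, had 0.739 and 0.801 RPKM in siEsrrb replicates 1 and 2, against 0.343 and 0.401 RPKM in siCtrl replicates 1 and 2. The groups did not overlap (log2 difference 0.57, SE 0.08, limma adjusted p 0.247), as in the 21.8% of all genes tested that lay higher. Ank2 passed the minimum only through siEsrrb, with both siCtrl values under 0.5 RPKM, so nothing is read from this. Zgrf1, a helicase gene on the other side of Larp7, had 1.99 and 2.57 RPKM in siEsrrb, against 1.99 and 2.37 RPKM in siCtrl, which overlap (0.08, SE 0.08). Camk2d, a calmodulin-dependent kinase gene, lay under the minimum at 0.200 and 0.200 RPKM in siEsrrb and 0.160 and 0.155 RPKM in siCtrl. Arsj and Alpk1 stayed under 0.1 RPKM in every library, and Neurog2, a proneural factor, was listed at 0 in all 4. After scaling, Camk2d, Arsj and Alpk1 also lay higher in both siEsrrb libraries. For Arsj this rests on 10 and 15 reads in siEsrrb, against 5 and 11 reads in siCtrl. The share of genes under the minimum that lay higher was not counted, so nothing is read from this.

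Larp7 acts with the other proteins of the 7SK particle and with P-TEFb. Of 10 listed genes 8 were tested, 2 lay higher in both siEsrrb libraries, 2 lower and 4 overlapped, which is near the 21.8% higher and 22% lower among all genes tested. The median log2 difference was 0.05. Hexim1, which inhibits P-TEFb when bound to 7SK, stood at 0.34 (SE 0.09) and Mepce, which caps 7SK, at 0.23 (SE 0.11). The cyclins of P-TEFb, Ccnt2 and Ccnt1, stood at -0.26 (SE 0.09) and -0.14 (SE 0.08). Rn7sk, the 7SK RNA gene, has no row. None of the 5 tested genes of the La-related family besides Larp7 was apart: Larp1, which binds capped mRNAs of ribosomal proteins, stood at 0.25 (SE 0.18), Ssb, the La protein, at -0.17 (SE 0.13), Larp4 at 0.07, Larp4b at 0.02 and Larp1b at 0.00058. Their median was 0.02 and -0.016 on unscaled RPKM. Limma passed 0 of either list over all genes.

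The miRNA processing genes cut, export and load the hairpins. Of 18 tested genes 4 lay higher in both siEsrrb libraries, 7 lower (21.8% of all genes tested lay higher and 22% lower) and 7 overlapped, and the median was 0.03, or -0.0033 on unscaled RPKM. The 4 furthest from 0 were Lin28a (0.47, SE 0.25) and Lin28b (0.26, SE 0.09), which block let-7 maturation, Ago2 (-0.26, SE 0.08), the slicing Argonaute, and Tnrc6c (-0.23, SE 0.11), a silencing partner of Argonaute. In Lin28a the groups overlapped. Limma passed 0 of the 18 (smallest adjusted p 0.404).

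Of 7 pluripotency factors, among them those reported at the promoter of the cluster, 4 lay lower in both siEsrrb libraries, 1 higher and 2 overlapped, beside 22% lower and 21.8% higher among all genes tested. The median log2 difference was -0.47. Esrrb, the target of the siRNA, is among the 4 that lay lower and is in this median. Klf4 had 1.13 and 1.77 RPKM in siEsrrb replicates 1 and 2, against 5.38 and 4.39 RPKM in siCtrl replicates 1 and 2 (-1.45, SE 0.20). Zfp42, a naive stem cell marker also called Rex1, stood at -0.85 (SE 0.15), Esrrb at -0.72 (SE 0.15) and Nanog at -0.47 (SE 0.16). Pou5f1, which encodes Oct4 and was named after its values were seen, was the one that lay higher, at 0.42 (SE 0.19). Limma passed 0 of the 7 (smallest adjusted p 0.247).

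Genes reported as targets of the AAGUGC seed were read here on chromatin, which does not show the action of a miRNA on mature mRNA. Of 10 listed, 7 were tested, 2 lay higher in both siEsrrb libraries and 5 overlapped, beside 21.8% higher among all genes tested. The median log2 difference was 0.05, or -0.011 without the minimum. The ones apart were the Nodal inhibitors Lefty1 (1.11, SE 0.15) and Lefty2 (0.54, SE 0.09). Ei24, a p53-induced gene, stood at -0.27 (SE 0.17) and Rbl2, a retinoblastoma-like repressor of the cell cycle, at -0.20 (SE 0.18). Limma passed 0 of the 7 (smallest adjusted p 0.247).

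**Figure D4:**
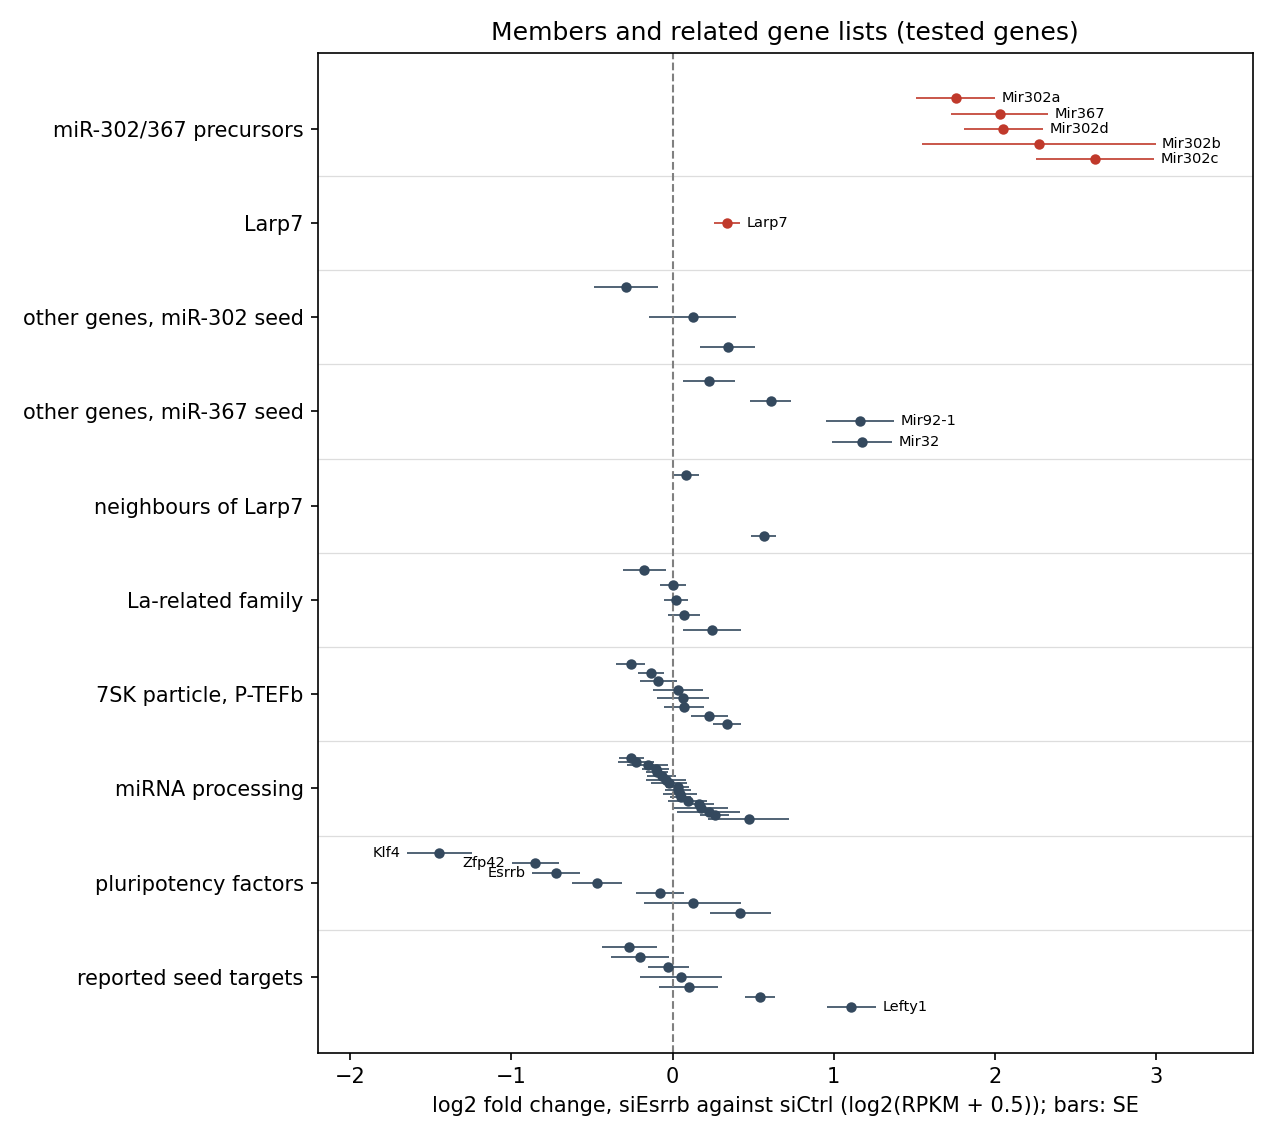
Fitted log2 fold change with its SE (x axis, siEsrrb against siCtrl) of the 5 precursors, Larp7 and the tested genes of 8 related lists (rows), with names beside the points of largest size. The precursors lie between 1.76 and 2.62, Larp7 at 0.34, and the listed genes between -1.45 (Klf4) and 1.18 (Mir32).

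The genes most like the summed cluster were sought among 9147 tested genes with at least 20 reads in every library, by the Euclidean distance between centred log2(RPKM + 0.5) values over the 4 libraries. The 6 nearest were Lefty1 (distance 1.06), Mir668 (1.08), Igdcc4 (1.09), Hes6 (1.11), Mir487b (1.12) and Id1 (1.13). Mir668 and Mir487b belong to a large imprinted miRNA cluster, Hes6 and Id1 encode helix-loop-helix regulators, and Igdcc4 encodes a cell surface protein of the immunoglobulin family. Their log2 differences were 1.11 for Lefty1, 1.21 for Mir668, 1.08 for Igdcc4, 1.11 for Hes6, 1.02 for Mir487b and 1.15 for Id1, all smaller than the 2.09 of the cluster. The summed cluster, with 6 and 16 reads in siCtrl replicates 1 and 2, would itself fail the minimum of 20 reads. Genes as low in siCtrl as the cluster were thus not searched, and nothing is read from its larger difference.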

How the data were processed

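Nascent RNA was analysed in 4 of the 60 samples, and the other 56 were not analysed here. The authors deposited 1 RPKM value per RefSeq transcript and library (34929 transcripts). Per the submitters' processing notes, the build was mm9, CASAVA 1.4 and TopHat2 were used throughout, and the replicate 1 libraries also list Bowtie 1.1.1 and Bowtie2. The counter, the annotation version and strand use were not given in the sources used here. A deposited table of RPKM for the whole series equals the replicate 1 libraries at all 34929 transcripts and was used only for this check.

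RefSeq tables of GRCm38.p6 gave a symbol for 34626 transcripts, and 303 without one were left out. For each symbol the transcript with the highest summed RPKM was kept. The deposited RPKM gave back whole reads (all 31771 transcripts above 0 within 0.0005 of a read) and served for depths, exact intervals (SciPy 1.17.1) and the voom alternatives. RPKM were scaled by median-of-ratios factors, 0.5 was added, and log2 values were fitted with limma 3.58.1 in R 4.3.3 (mean-variance trend, 2 groups, no replicate block, two-sided, Benjamini-Hochberg) over 9755 genes with a mean of at least 0.5 RPKM. The fit was tested on simulated data of genes with a mean of at least 20 reads per library and no effect of replicate number. It was thus not tested at the read numbers of the precursors. An exact permutation test of 2 against 2 cannot go below p = 0.333, so none was run. Differences are siEsrrb minus siCtrl, and genes of the lists were called higher, lower or overlapping on scaled RPKM.

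Members and gene lists were chosen with earlier results of these data known. Named genes are the members, all of a list with up to 6 tested genes or else the 4 furthest from 0, tested genes sharing a seed, the 3 neighbours per side, the 6 nearest in pattern, and Esrrb. Alternatives were other pseudocounts, minimums and scalings, voom, a replicate block and leaving out each library.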

Additional observations from a re-analysis of the deposited data

How the results depend on the processing

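All 5 precursors rest on 165 reads together, so depth limits each single value. The summed cluster (log2 difference 2.09) stayed positive in every alternative, at 2.57 with a pseudocount of 0.1 RPKM, 1.71 with 1 RPKM, 2.13 without Mir367 and 1.95 to 2.22 on leaving out one library. Larp7 (0.34) was 0.46 and 0.25 with these pseudocounts and 0.26 to 0.41 on leaving out one library. It turned to -0.088 without reads at the precursors' density over the length of Gm51018, an alternative chosen after seeing the data, whose construction takes more reads from siEsrrb. The density ratio (2.23) was 1.97 to 2.49 on leaving out one library. The median gap of other opposite-strand miRNA genes (0.01) was -0.037 with at least 50 reads, where no precursor of the cluster is left. List medians turned sign for miRNA processing (-0.0033) and the La-related family (-0.016) on unscaled RPKM and for the reported seed targets (-0.011) with no filter. The cause was not tested. No other transcript of the members exists in the tables, so that alternative was not run. Genes past the limma threshold were 0 to 6 on leaving out one library (6 without siEsrrb replicate 2 and 2 without siCtrl replicate 1). With a replicate block limma passed 0 genes and the cluster stayed at 2.09, and a replicate block with voom on recovered reads, added after seeing the data, passed 2689. The labels number only the later pair and state no pairing, but same-numbered libraries are alike in depth and in the tools listed. Their deviations from the group means correlated with r = 0.386 across 9755 genes and 0.621 across the 9355 with a mean of at least 20 reads, genes that are not independent.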
